A study of Mus musculus with 7 samples.

Results

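The 10 core enzymes that turn glucose 6-phosphate into lactate were followed through whole E11.5 mouse embryos with and without SLMAP3. The deposited table lists an FPKM value (sequenced fragments per kilobase of a transcript, corrected for depth) for each of 25461 genes in each embryo. The rows whose symbol is Gpi1, Pfkl, Aldoa, Tpi1, Gapdh, Pgk1, Pgam1, Eno1, Pkm or Ldha were taken, which gave 11 rows, since Aldoa has a second row. These genes were chosen from earlier comparisons of KO and WT values in the same 7 embryos, so their KO and WT values are given below as a description, without a test. All 11 rows averaged above 1 FPKM, the minimum for the fit over 16095 genes that supplies fold changes, standard errors and, for genes outside the 10 enzymes, p-values.

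The study asked how loss of SLMAP3, a membrane-anchored isoform of the sarcolemmal membrane-associated protein, affects the embryo. The KO group held 3 embryos labelled SLMAP3 knockout and the WT group 4 wildtype embryos, all B6C3F1 at embryonic day 11.5, carried whole into RNA extraction except for the tail, which was used for genotyping. The KO allele was made with loxP sites around exon 3 of Slmap and a CMV-driven cre, then bred without cre, so that every cell of a KO embryo carries it. Replicates are named KO1 to KO3 and WT1 to WT4. Their labels carry a series number, 8 for KO1 and WT1, 9 for WT3 and 10 for KO2, KO3, WT2 and WT4, and what that number stands for is not given in the sources used here. Depth per embryo is known only in relative terms. From the spacing of low FPKM values it lay at 0.81 to 1.22 of the mean over the 7 embryos.

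Glycolysis splits 1 molecule of glucose into a pair of pyruvate molecules in the cytosol, and lactate dehydrogenase regenerates the NAD+ that the pathway consumes. Mouse embryos soon after implantation are known for heavy use of this route. Many of its enzyme genes are known targets of the oxygen-sensitive factor HIF-1, which binds a short core in DNA, and of MYC, which binds the palindrome CACGTG. In whole-embryo RNA, fewer cells of a type and less RNA per cell cannot be told apart.

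The promoters of 5 of the enzymes are shown because they are those with 2 or more copies of the HIF core in 1 promoter window, and their genes bear different relations to genotype in the values that follow. The motifs searched were ACGTG and GCGTG on both strands, so that CACGT and CACGC on the strand shown also count, and CACGTG counts as 2 overlapping matches. Each line holds the 250 bases before a RefSeq start site on GRCm38.p6, written 5′ to 3′ on the gene's strand, with the matches in capitals. The Ldha line comes from chr7:46845554-46845803 on the plus strand, the Pgam1 line from chr19:41911621-41911870 on the plus strand, the Pgk1 line from chrX:106186850-106187099 on the plus strand, the Gapdh line from chr6:125165774-125166023 on the minus strand and the Eno1 line from chr4:150236947-150237196 on the plus strand.
Ldha: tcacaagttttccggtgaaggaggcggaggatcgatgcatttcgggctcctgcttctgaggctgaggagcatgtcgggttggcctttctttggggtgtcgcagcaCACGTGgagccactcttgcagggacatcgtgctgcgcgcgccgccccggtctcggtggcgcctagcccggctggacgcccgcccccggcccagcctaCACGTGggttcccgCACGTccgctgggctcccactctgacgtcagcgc
Pgam1: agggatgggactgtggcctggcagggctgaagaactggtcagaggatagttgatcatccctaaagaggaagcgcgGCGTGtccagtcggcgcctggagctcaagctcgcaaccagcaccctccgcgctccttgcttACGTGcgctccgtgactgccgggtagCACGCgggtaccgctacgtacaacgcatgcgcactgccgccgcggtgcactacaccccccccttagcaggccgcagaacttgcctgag
Pgk1: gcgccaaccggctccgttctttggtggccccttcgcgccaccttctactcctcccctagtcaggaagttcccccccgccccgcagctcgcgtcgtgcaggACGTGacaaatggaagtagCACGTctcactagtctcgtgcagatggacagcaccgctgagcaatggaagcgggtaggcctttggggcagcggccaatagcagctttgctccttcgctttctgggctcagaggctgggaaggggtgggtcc
Gapdh: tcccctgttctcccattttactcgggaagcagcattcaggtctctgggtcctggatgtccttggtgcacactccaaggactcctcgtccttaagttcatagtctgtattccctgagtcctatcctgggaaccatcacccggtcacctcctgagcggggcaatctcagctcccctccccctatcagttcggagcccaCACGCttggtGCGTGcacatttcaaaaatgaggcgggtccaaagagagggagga
Eno1: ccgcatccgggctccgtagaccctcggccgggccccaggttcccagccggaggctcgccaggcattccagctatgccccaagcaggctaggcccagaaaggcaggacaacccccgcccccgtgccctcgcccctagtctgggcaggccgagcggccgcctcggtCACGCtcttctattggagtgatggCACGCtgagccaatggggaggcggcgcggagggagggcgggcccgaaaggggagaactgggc

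The Ldha promoter held 5 matches, at positions -145, -144, -48, -47 and -34 from the start, and a CACGTG palindrome gives the first pair and another the second. Pgam1 held 3 matches and Pgk1, Gapdh and Eno1 held 2 each. The RefSeq table holds 16 windows for the 10 enzymes, and some of one gene overlap, so matches were counted per gene. A match in at least 1 window was found for 8 of the 10 enzymes, beside 60.6% of the 11144 symbols in the fit that have a window, and 2 or more in 1 window for 5 of the 10, beside 30.5%. Of the windows of those symbols, 1.77% held 5 or more. Every motif searched holds a CG pair. The enzyme windows held a median of 17.5 CG pairs, beside 15 in the windows of those symbols. A gene with more windows also has more chances of a match, so these shares are not compared further. Gpi1 and Tpi1 had no match in their window. A match is a description of the letters and not a binding site.

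Slmap itself was read first. It was at 19.6, 16.0 and 16.6 FPKM in KO1 to KO3 and at 31.2, 23.9, 29.1 and 22.8 FPKM in WT1 to WT4, so that the highest KO value was under the lowest WT value. The log2 fold change was -0.59 (SE 0.13, adjusted p = 0.278 by limma over all genes). The value covers every isoform of the gene and is not a measure of SLMAP3 alone.

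The 10 enzymes were more abundant in the KO embryos. Their summed level was 4676, 4913 and 4681 FPKM in KO1 to KO3 and 3908, 3554, 3961 and 3915 FPKM in WT1 to WT4, and the groups did not overlap. The KO mean of 4756 ± 136 FPKM (SD, n = 3) was 1.24 times the WT mean of 3835 ± 188 FPKM (SD, n = 4). All 11 rows had a positive log2 fold change, with a median of 0.35 against 0.01 over all 16095 genes. In 8 of the 11 rows, which stand for 7 of the 10 enzymes, the lowest KO value exceeded the highest WT value, beside 5.61% of all genes in the fit, and in 0 rows did the highest KO value fall under the lowest WT value, beside 5.98% of all genes. Because these embryos were used to choose the enzymes, nothing is read from that contrast. With the values of each embryo rescaled to a common sum, the 8 rows became 5, and Pfkl, Pgam1 and the second Aldoa row then overlapped.

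**Figure D1:**
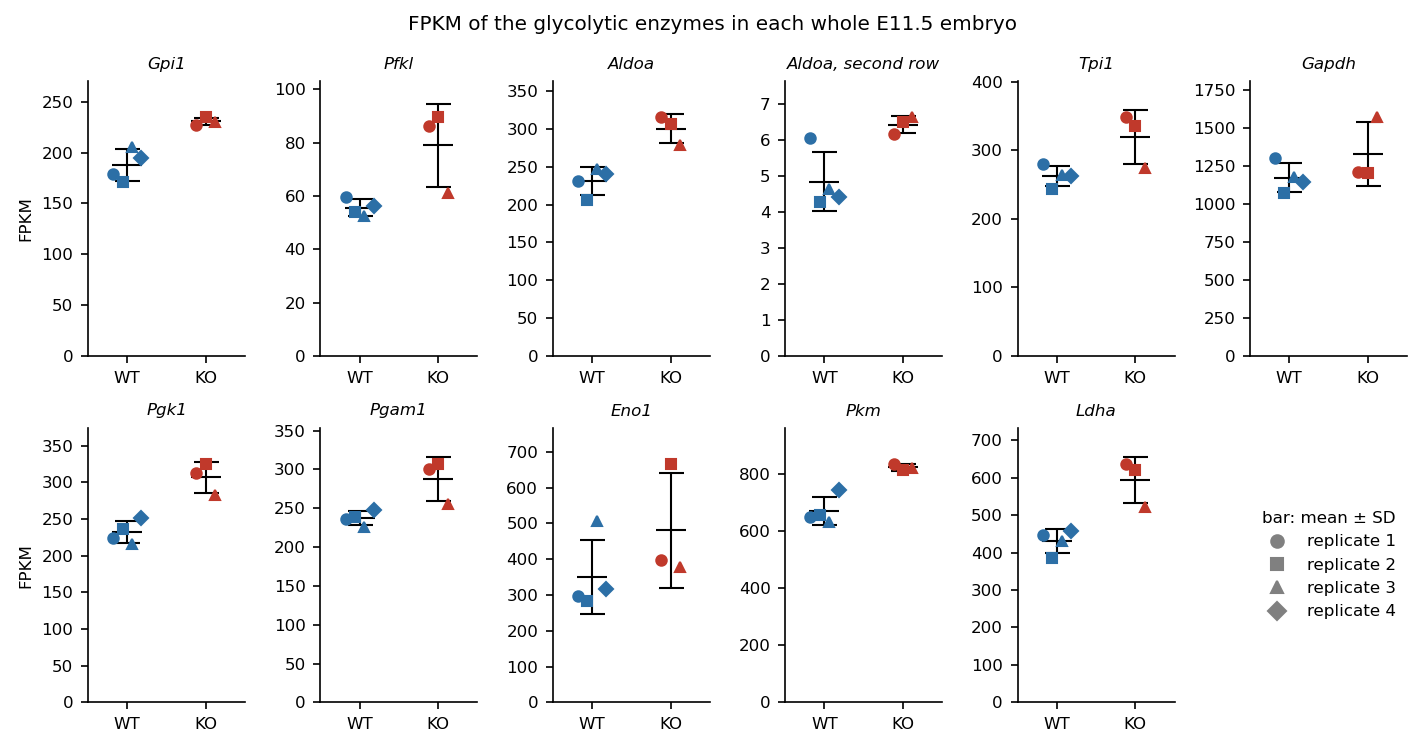
FPKM (y axes, each from 0) of the 10 glycolytic enzymes, with the second Aldoa row, in 4 WT (blue) and 3 KO (red) embryos; markers give the replicate, bars the mean ± SD. In 8 of the 11 panels the red points all lie above the blue ones, while Tpi1, Gapdh and Eno1 overlap.

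The upper, energy-consuming steps are carried by Gpi1, Pfkl and Aldoa. Gpi1 (ENSMUSG00000036427, chromosome 7, 34201330 to 34230336, minus strand, GRCm38 with GENCODE M21 as for all positions given here), which interconverts glucose 6-phosphate and fructose 6-phosphate, was at 227, 235 and 230 FPKM in KO1 to KO3 and at 179, 172, 206 and 194 FPKM in WT1 to WT4. The KO values were nearly equal and all above the highest WT value, that of WT3. The KO mean was 1.23 times the WT mean (log2 fold change 0.30, SE 0.07).

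Pfkl (ENSMUSG00000020277, chromosome 10, 77986947 to 78010083, minus strand) encodes the liver-type phosphofructokinase, the main regulated step of the pathway. It was at 86.3, 89.5 and 61.0 FPKM in KO1 to KO3 and at 59.7, 53.9, 52.4 and 56.1 FPKM in WT1 to WT4. KO1 and KO2 stood well above all WT embryos, whereas KO3 exceeded WT1 by little. The KO mean was 1.42 times the WT mean, the highest ratio among the 10 enzymes (log2 fold change 0.48, SE 0.13).

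Aldoa (ENSMUSG00000030695, chromosome 7, 126795234 to 126800751, minus strand), the aldolase of muscle and most embryonic tissue, cleaves fructose 1,6-bisphosphate. Its main row was at 315, 307 and 278 FPKM in KO and at 231, 206, 246 and 241 FPKM in WT embryos. The lowest KO embryo, KO3, was above the highest WT embryo, WT3, and the KO mean was 1.30 times the WT mean (log2 fold change 0.38, SE 0.08). The second row, ENSMUSG00000114515, lies just upstream on chromosome 7 (126800790 to 126809108, minus strand) and shares 0 of its 799 stretches of 50 bases with other genes. It stood at 6.15, 6.48 and 6.62 FPKM in KO and at 6.04, 4.28, 4.62 and 4.42 FPKM in WT embryos. WT1 came close to KO1, so the gap between the groups was narrow.

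Tpi1 and Gapdh handle the triose phosphates, and both overlapped between the groups. Tpi1 (ENSMUSG00000023456, chromosome 6, 124810586 to 124814296, minus strand), which converts dihydroxyacetone phosphate to glyceraldehyde 3-phosphate, was at 348, 336 and 274 FPKM in KO1 to KO3 and at 279, 244, 264 and 262 FPKM in WT1 to WT4. Only KO3 fell within the WT range, below WT1. The KO mean was 319 ± 39.5 FPKM (SD, n = 3) and the WT mean 263 ± 14.4 FPKM (SD, n = 4), a ratio of 1.22 (log2 fold change 0.28, SE 0.09).

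Gapdh (ENSMUSG00000057666, chromosome 6, 125161715 to 125166467, minus strand), the dehydrogenase that yields NADH and a common reference gene, was the most abundant of the 10. It was at 1208, 1204 and 1568 FPKM in KO1 to KO3 and at 1297, 1070, 1173 and 1140 FPKM in WT1 to WT4. KO3, the lowest KO embryo in 7 of the 11 rows, was the highest here, and KO1 and KO2 lay below WT1. Its KO mean was 1.13 times the WT mean, the lowest ratio of the 10 (log2 fold change 0.17, SE 0.12), and the log2 fold change was 0.05 without KO3. Within label series 8, KO1 stood at 0.931 of WT1, and within series 10 the KO mean was 1.25 times the WT mean.

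Pgk1 and Pgam1 carry the steps between 1,3-bisphosphoglycerate and 2-phosphoglycerate. Pgk1 (ENSMUSG00000062070, chromosome X, 106187100 to 106203699, plus strand), the kinase that makes the first ATP of the pathway, was at 312, 325 and 283 FPKM in KO and at 225, 237, 216 and 251 FPKM in WT embryos. The lowest KO embryo, KO3, was 1.13 times the highest WT embryo, and the KO mean was 1.32 times the WT mean (log2 fold change 0.40, SE 0.07). Pgam1 (ENSMUSG00000011752, chromosome 19, 41911923 to 41918660, plus strand), the mutase, was at 301, 307 and 255 FPKM in KO and at 236, 239, 226 and 248 FPKM in WT embryos. KO3 was again the lowest of the KO group, a few FPKM above WT4, and the KO mean was 1.21 times the WT mean (log2 fold change 0.27, SE 0.08).

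Eno1 (ENSMUSG00000063524, chromosome 4, 150236721 to 150248879, plus strand), the main enolase of the embryo, varied most. Its row stood at 397, 667 and 380 FPKM in KO1 to KO3 and at 297, 284, 505 and 316 FPKM in WT1 to WT4. KO2 and WT3 stood apart from all others, so that the groups overlapped, and the SDs were 161 FPKM (n = 3) in KO and 104 FPKM (n = 4) in WT. The fold change on the log2 scale was 0.45 with the largest SE among the enzymes, 0.27. It was 0.19 without KO2 and 0.64 without WT3.

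The copies of Eno1 in the table had the opposite pattern. Eno1b, a copy of the enolase gene on chromosome 18, was at 120, 0 and 113 FPKM in KO1 to KO3 and at 84.5, 78.4, 0 and 92.2 FPKM in WT1 to WT4. Gm4735, a processed pseudogene on chromosome 2 (80837141 to 80838442), was at 188, 0 and 186 FPKM in KO and at 141, 132, 0.604 and 154 FPKM in WT embryos. Both were thus at or near 0 in KO2 and WT3, the embryos with the highest Eno1. Among all 25461 rows, these 2 were the only ones under 1 FPKM in both KO2 and WT3 and above 10 FPKM in each of the other embryos, limits set after the values were seen. In GENCODE M21, 76.4% of the 50-base stretches of Eno1b also occur in Eno1 and 63.0% in Gm4735. Whether the values near 0 in KO2 and WT3 reflect a strain difference or the assignment of reads among the copies was not tested. The enolase level therefore depends on whether the copies are counted.

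With Eno1, Eno1b and Gm4735 summed, the enolase level was 705, 667 and 679 FPKM in KO1 to KO3 and 523, 494, 506 and 562 FPKM in WT1 to WT4. The sum no longer set KO2 and WT3 apart, and all KO values were above all WT values. Its KO mean of 683 ± 19.5 FPKM (SD, n = 3) was 1.31 times the WT mean of 521 ± 29.4 FPKM (SD, n = 4). FPKM of genes that differ in length do not add exactly, so the sum was also made with each copy weighted by its normalized counts per FPKM, 98.3% of that of Eno1 for Eno1b and 68.6% for Gm4735. The weighted sum ran from 618 to 667 FPKM in KO and from 451 to 512 FPKM in WT embryos, again without overlap. Adding Eno1b alone left an overlap, with 493 FPKM in KO3 and 505 FPKM in WT3.

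**Figure D2:**
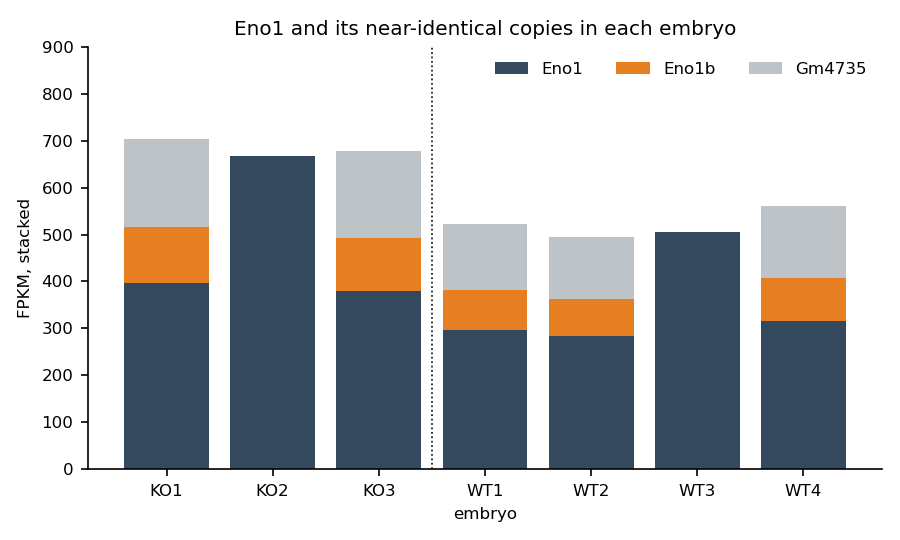
Stacked FPKM (y axis) of Eno1 and its near-identical copies Eno1b and Gm4735 in each embryo (x axis). The copies are at or near 0 in KO2 and WT3, and the stacked totals lie at 667 to 705 FPKM in KO and 494 to 562 FPKM in WT embryos.

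Pkm and Ldha close the pathway. Pkm (ENSMUSG00000032294, chromosome 9, 59656368 to 59679375, plus strand), the pyruvate kinase of most tissues, was at 837, 816 and 821 FPKM in KO1 to KO3 and at 652, 659, 635 and 745 FPKM in WT1 to WT4. The KO embryos were nearly equal, with a mean of 825 ± 11.1 FPKM (SD, n = 3), 1.23 times that of the WT embryos (log2 fold change 0.30, SE 0.07). Gene-level values do not separate its M1 and M2 splice forms. Ldha (ENSMUSG00000063229, chromosome 7, 46841475 to 46855627, plus strand), the lactate dehydrogenase subunit that favours lactate formation, was at 637, 620 and 523 FPKM in KO and at 447, 387, 431 and 457 FPKM in WT embryos. KO3 lay between the other KO embryos and the WT group, and the KO mean was 1.38 times the WT mean (log2 fold change 0.46, SE 0.09).

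Other enzymes also have near-identical copies in the table. Gm5537 shares 53.7% of the 50-base stretches of Pgk1 and averaged 33.2 FPKM, and Pgk1 with Gm5537 added still had every KO embryo above every WT embryo. Pgam1-ps2 shares 36.2% of those of Pgam1 and averaged 27.1 FPKM. With it added, Pgam1 ran from 276 to 334 FPKM in KO and from 255 to 284 FPKM in WT embryos, so that KO3 fell below WT4. Gm7336 shares 24.6% of the stretches of Gapdh, and Gapdh with it added still overlapped. Levels of these enzymes are therefore uncertain by what the quantification gave to the copies.

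The enzymes varied among the embryos of each genotype as well. KO3 was the lowest KO embryo in 7 of the 11 rows, and WT2 the lowest WT embryo in 7. The mean z-score over the rows, in SD from each row's mean of log2(FPKM + 1), was 0.95, 1.12 and 0.50 in KO1 to KO3 and -0.48, -1.05, -0.57 and -0.48 in WT1 to WT4. This mean includes the Eno1 row without its copies, at 1.74 in KO2 and 0.84 in WT3. Over the 55 pairs of rows, Pearson correlations across the 7 embryos ran from 0.066 to 0.98 with a median of 0.74. The 28 pairs without Gapdh, Eno1 and the second Aldoa row, left out after their values were seen, ran from 0.70 to 0.98 with a median of 0.87. The 10 pairs with Gapdh had a median of 0.29 and those with Eno1 a median of 0.55. These points share the 7 libraries and the genotype difference that the enzymes were chosen for, so the correlations only describe them.

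**Figure D3:**
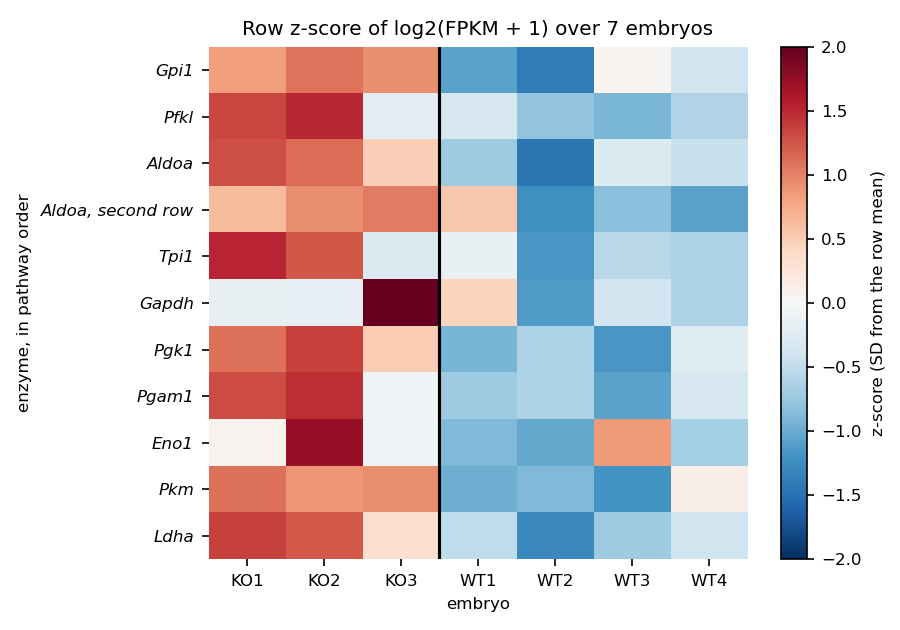
Row z-score of log2(FPKM + 1) for the 11 enzyme rows (y axis, pathway order) in the 7 embryos (x axis, KO left of the line). Most rows are red in KO1 and KO2, paler in KO3 and blue in the WT embryos, whereas Gapdh is highest in KO3 and Eno1 in KO2 and WT3.

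The other isozymes of these steps had fold changes on both sides of 0. Of 13 isozyme rows in the fit, 6 had a positive and 7 a negative fold change, and 0 had an adjusted p under 0.05 by limma, beside 0.0373% of all genes. At an unadjusted p under 0.05, 2 were higher and 2 lower, beside 5.27% and 6.19% of all genes. Hk2, the inducible hexokinase, which starts the pathway, was at 13.2, 13.0 and 11.2 FPKM in KO and at 9.15, 7.82, 7.02 and 8.63 FPKM in WT embryos (log2 fold change 0.56, SE 0.10, adjusted p = 0.274 by limma). Its groups did not overlap, whereas Hk1, the housekeeping hexokinase, had a log2 fold change of -0.08 (SE 0.11, adjusted p = 0.790). Hk2 made up 31.3%, 32.3% and 26.2% of the hexokinase FPKM in KO1 to KO3 and 16.6% to 23.5% in WT embryos, while the sum over the hexokinases was 41.8 ± 1.19 FPKM (SD, n = 3) in KO against 39.4 ± 3.26 FPKM (SD, n = 4) in WT.

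Phosphofructokinase has 3 isozymes. Pfkm, the muscle type, was at 30.8, 33.6 and 30.8 FPKM in KO and at 35.4, 34.5, 36.4 and 33.6 FPKM in WT embryos, lower in every KO than in every WT embryo by a narrow margin (log2 fold change -0.14, SE 0.05, adjusted p = 0.405). Pfkp, the platelet type, had a log2 fold change of 0.29 (SE 0.10, adjusted p = 0.365). Pfkl made up 55.4% to 65.1% of phosphofructokinase FPKM in KO and 50.4% to 55.3% in WT embryos. At the last step, Ldhb, the subunit that favours pyruvate, was at 232, 205 and 219 FPKM in KO and at 203, 228, 224 and 202 FPKM in WT embryos (log2 fold change 0.03, SE 0.07, adjusted p = 0.907), and the share of Ldha was 70.5% to 75.2% in KO and 62.9% to 69.4% in WT embryos.

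Bpgm, which diverts 1,3-bisphosphoglycerate to the haemoglobin ligand 2,3-bisphosphoglycerate in red cells, was lower in every KO embryo. It was at 44.2, 46.1 and 49.6 FPKM in KO and at 51.1, 56.3, 63.2 and 60.3 FPKM in WT embryos (log2 fold change -0.30, SE 0.08, adjusted p = 0.310). Pgam2, the muscle mutase, had a log2 fold change of -0.13 (SE 0.08), Aldoc of -0.25 (SE 0.15), Eno2 of 0.01 (SE 0.18) and Eno3 of 0.11 (SE 0.09), with adjusted p of 0.538, 0.548, 0.986 and 0.637. Pklr, the pyruvate kinase of liver and red cells, was at 6.61 to 12.2 FPKM in KO1, KO3, WT1 and WT3 and at 1.52 to 2.50 FPKM in KO2, WT2 and WT4 (log2 fold change 0.04, SE 0.70, adjusted p = 0.985).

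**Figure D4:**
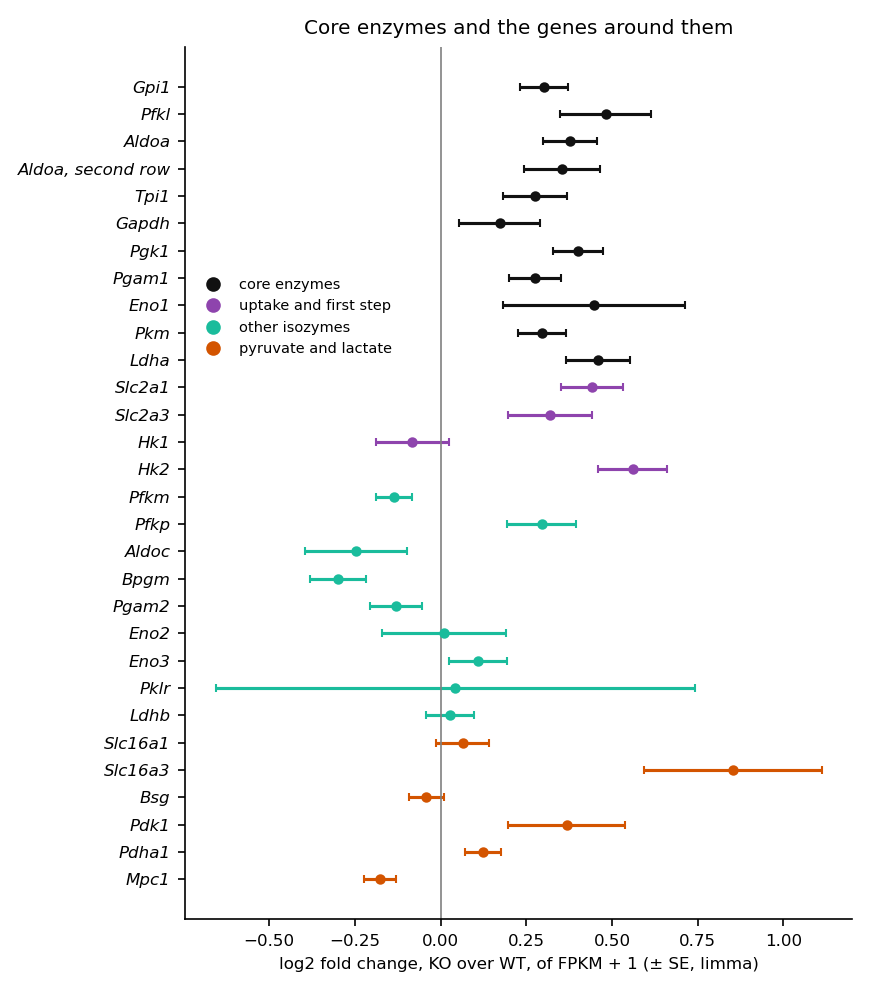
Log2 fold change of KO over WT on FPKM + 1 (x axis, ± SE from limma) for the core enzymes and for transporters, isozymes and pyruvate and lactate genes (y axis). All core rows lie right of 0, between 0.17 and 0.48, while the isozymes lie on both sides.

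Glucose uptake and lactate export genes were read from a list of 23 transport and control genes. Of the 21 in the fit, 11 had a positive and 10 a negative fold change, and 0 had an adjusted p under 0.05 by limma. An unadjusted p under 0.05 was reached by 3 that were higher and 2 that were lower in KO embryos, beside 5.27% and 6.19% of all genes. Slc2a1, which encodes the glucose transporter GLUT1, was at 63.0, 73.2 and 59.8 FPKM in KO and at 49.4, 42.6, 47.6 and 51.6 FPKM in WT embryos (log2 fold change 0.44, SE 0.09, adjusted p = 0.274). Slc2a3, the neuronal GLUT3, was at 18.9, 19.3 and 17.0 FPKM in KO and at 16.0, 14.1, 16.9 and 11.6 FPKM in WT embryos (log2 fold change 0.32, SE 0.12, adjusted p = 0.403). Both had every KO embryo above every WT embryo, Slc2a3 by a narrow margin.

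Slc16a3 encodes the lactate exporter MCT4. It was at 45.4, 50.8 and 25.1 FPKM in KO1 to KO3 and at 25.0, 17.6, 17.5 and 25.2 FPKM in WT1 to WT4. KO1 and KO2 stood above all WT embryos and KO3 within their range (log2 fold change 0.85, SE 0.26, adjusted p = 0.347). Slc16a7, which encodes MCT2, had a log2 fold change of -0.60 (SE 0.25, adjusted p = 0.436). Bsg, the chaperone of both monocarboxylate transporters MCT1 and MCT4, was the most abundant gene of the list, with a log2 fold change of -0.04 (SE 0.05, adjusted p = 0.775).

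Pyruvate enters mitochondria through a carrier of 2 subunits and is oxidized by pyruvate dehydrogenase. Mpc1, a subunit of the mitochondrial pyruvate carrier, was at 39.3, 38.2 and 36.4 FPKM in KO and at 42.1, 44.8, 42.5 and 42.7 FPKM in WT embryos (log2 fold change -0.18, SE 0.05, adjusted p = 0.303). Pdha1, the E1 alpha subunit of pyruvate dehydrogenase, was at 50.2 to 56.8 FPKM in KO and 47.8 to 49.2 FPKM in WT embryos (log2 fold change 0.12, SE 0.05, adjusted p = 0.438). The groups did not overlap for either gene, and Pdhb, the E1 beta subunit, had a log2 fold change of 0.08 (SE 0.05, adjusted p = 0.558).

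In some other genes, chosen after their values were seen, KO1 and KO2 were also above all WT embryos and KO3 was not. Pdk1, the kinase that switches off pyruvate dehydrogenase, was at 21.8, 24.7 and 14.2 FPKM in KO1 to KO3 and at 14.2 to 16.4 FPKM in WT embryos. Pfkfb3, which makes the activator of phosphofructokinase, was at 16.1, 14.9 and 10.3 FPKM in KO1 to KO3 and at 9.73 to 11.9 FPKM in WT embryos. Bnip3, a mitophagy receptor, was at 52.5, 59.3 and 27.8 FPKM in KO1 to KO3 and at 28.4 to 34.2 FPKM in WT embryos. KO3 lay inside the WT range for Pfkfb3 and below every WT embryo for Bnip3. The adjusted p over all 7 embryos were 0.467, 0.510 and 0.472. Among the core enzymes, Pfkl, Aldoa, Tpi1, Pgk1, Pgam1, Eno1 and Ldha also had KO3 as the lowest KO embryo, inside the WT range for Tpi1 and Eno1 and above it for the others. For Eno1, however, KO1 at 397 FPKM was also below WT3 at 505 FPKM. With Eno1b and Gm4735 summed in, KO2 at 667 FPKM was the lowest KO embryo, beside 679 FPKM in KO3.

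**Figure D5:**
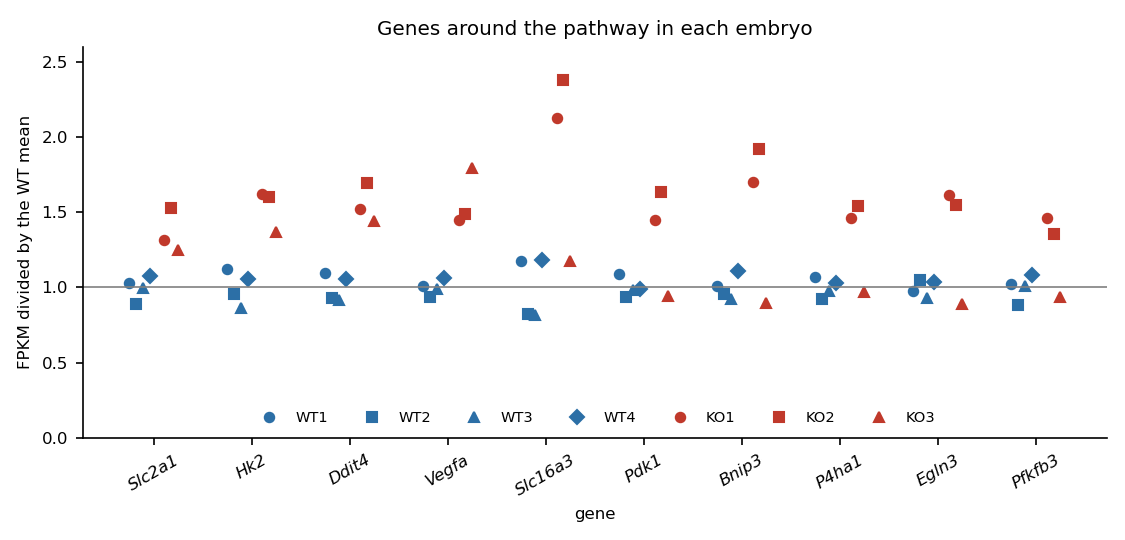
FPKM of genes around the pathway divided by the WT mean of each gene (y axis from 0) in every WT (blue) and KO (red) embryo. For Slc2a1, Hk2, Ddit4 and Vegfa all red points lie above the blue ones, whereas for Slc16a3, Pdk1, Bnip3, P4ha1, Egln3 and Pfkfb3 KO3, the red triangle, lies no higher than the highest WT point.

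The tricarboxylic acid cycle takes over carbon from pyruvate. Of its 17 listed genes, 10 had a positive and 7 a negative fold change with a median of 0.01, 0 had an adjusted p under 0.05 by limma, and 1 was lower at an unadjusted p under 0.05, beside 6.19% of all genes, a share near its own 1 in 17. That gene was Sdhc, a membrane anchor of succinate dehydrogenase, at 146, 153 and 155 FPKM in KO and at 173, 167, 157 and 168 FPKM in WT embryos (log2 fold change -0.13, SE 0.05, adjusted p = 0.400). Mdh2 and Sdhb, the other most abundant genes of the cycle, had log2 fold changes of -0.02 (SE 0.07) and -0.05 (SE 0.05). Suclg2 had 0.18 (SE 0.10) and Ogdh -0.09 (SE 0.05), with adjusted p of 0.539 and 0.537. The summed level of the 17 genes was 1512 ± 83.1 FPKM (SD, n = 3) in KO against 1527 ± 10.4 FPKM (SD, n = 4) in WT embryos.

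Routes that branch from glycolysis were read from 26 genes, of which 22 were in the fit. Here 15 had a positive and 7 a negative fold change, 0 had an adjusted p under 0.05 by limma, and an unadjusted p under 0.05 was reached by 0 that were higher and 2 that were lower, beside 5.27% and 6.19% of all genes. Taldo1, transaldolase of the pentose phosphate pathway, was at 127, 133 and 126 FPKM in KO and at 142, 137, 145 and 144 FPKM in WT embryos (log2 fold change -0.14, SE 0.04, adjusted p = 0.348). Tkt, transketolase, had a log2 fold change of 0.12 (SE 0.06, adjusted p = 0.467). Pgls, which opens the lactone of that pathway, was at 80.9 to 85.5 FPKM in KO and 77.7 to 80.0 FPKM in WT embryos (log2 fold change 0.08, SE 0.04, adjusted p = 0.493).

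Genes that draw on 3-phosphoglycerate to make serine stood apart in KO3. Psat1 was at 69.6, 48.1 and 187 FPKM in KO1 to KO3 and at 48.2 to 69.7 FPKM in WT embryos. Psph was at 29.3 FPKM in KO3 and at 10.6 to 11.9 FPKM in the other embryos, and Phgdh at 113, 100 and 163 FPKM beside 96.5 to 105 FPKM. Pck2, the mitochondrial enzyme that makes phosphoenolpyruvate, was at 17.8, 15.1 and 50.9 FPKM in KO1 to KO3 and at 16.3 to 18.8 FPKM in WT embryos. KO3 was thus far above all others for these 4 genes, while for most core enzymes it was the lowest of the KO embryos. The adjusted p of Psat1, Psph, Phgdh and Pck2 over all embryos were 0.587, 0.661, 0.539 and 0.678.

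No known regulator of the pathway on the list passed the test. Of 14 HIF and MYC regulators, 9 had a positive and 5 a negative fold change, 0 had an adjusted p under 0.05 by limma, and 1 was higher at an unadjusted p under 0.05, near the 5.27% of all genes. Hif1a, the oxygen-sensitive subunit, was at 49.7, 47.5 and 45.1 FPKM in KO and at 47.2, 48.7, 44.2 and 45.8 FPKM in WT embryos (log2 fold change 0.03, SE 0.05, adjusted p = 0.866). Max and Egln2 had -0.06 (SE 0.18) and -0.07 (SE 0.06). Mycn, the MYC family member of neural progenitors, was at 28.2, 27.3 and 39.1 FPKM in KO and at 22.3, 21.9, 21.9 and 26.6 FPKM in WT embryos (log2 fold change 0.42, SE 0.14, adjusted p = 0.355). Hif1an, which hydroxylates HIF, was at 19.8 to 20.4 FPKM in KO and 17.8 to 19.4 FPKM in WT embryos (log2 fold change 0.10, SE 0.05, adjusted p = 0.481). Egln3 and Mlxipl had log2 fold changes of 0.32 (SE 0.17) and 0.21 (SE 0.17), with adjusted p of 0.516 and 0.654.

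Hypoxia-response genes outside the pathway had the highest median fold change of the 6 lists read around it. Of 16 genes, 13 had a positive and 3 a negative fold change with a median of 0.28. Every KO embryo was above every WT embryo for 7 of them, beside 5.61% of all genes, and 8 were higher at an unadjusted p under 0.05, beside 5.27% of all genes. Of the 16, 0 had an adjusted p under 0.05 by limma. Vegfa, the vascular growth factor, was at 92.1, 94.6 and 114 FPKM in KO and at 64.3, 59.8, 62.9 and 67.6 FPKM in WT embryos (log2 fold change 0.64, SE 0.08, adjusted p = 0.133). Ddit4, an inhibitor of mTORC1, was at 58.8, 65.4 and 55.6 FPKM in KO and at 42.2, 36.0, 35.4 and 40.7 FPKM in WT embryos (log2 fold change 0.62, SE 0.09, adjusted p = 0.165). Ak4, Kdm3a, Adm, Mxi1 and Higd1a also did not overlap, with log2 fold changes of 0.68, 0.41, 0.36, 0.15 and 0.10. Ankrd37, chosen after its values were seen, had 0.62 (SE 0.18), with KO3 at 10.9 and WT4 at 11.0 FPKM. The abundant Fam162a and Bnip3l had 0.09 (SE 0.06) and -0.01 (SE 0.10). The list was drawn up with some of these values known and is no independent evidence of its direction.

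Markers of several tissues were separated between the genotypes, although 0 of them had an adjusted p under 0.05 by limma. The lowest adjusted p was 0.0891, for Ttr of the fetal liver and yolk sac list, and 0.274 among the later globins, the skeletal muscle genes and the neural progenitor genes. Beside the counts that follow, 5.98% of all genes were lower in every KO embryo and 5.61% higher. The 4 later globins summed to 5860, 5551 and 6089 FPKM in KO1 to KO3 and to 12372, 8550, 16580 and 11082 FPKM in WT1 to WT4, and each of the 4, Hba-a1 the most abundant, was lower in every KO embryo. Of the primitive erythroid globins, Hbb-y was lower in every KO embryo and Hba-x and Hbb-bh1 overlapped. Of the 9 skeletal muscle genes in the fit, 8 were lower in every KO embryo, with sums of 152, 154 and 98.8 FPKM in KO and 222 to 364 FPKM in WT embryos, Tnnt1 the most abundant. Among 7 neural progenitor genes, Vim, Nes, Sox2 and Pax6 were higher in every KO embryo. Hes5 and Sox1 overlapped, with log2 fold changes of 0.50 and 0.44, and so did Fabp7, with -0.02. The list summed to 1387, 1459 and 1598 FPKM in KO and to 1218 to 1406 FPKM in WT embryos. Most of that sum was Vim, at 790 FPKM on average in KO and 694 FPKM in WT embryos. All 6 heart genes had a positive fold change with a median of 0.28, and 3 had an unadjusted p under 0.05, beside 5.27% of all genes, though none was separated by genotype. They summed to 467 ± 61.5 FPKM (SD, n = 3) in KO against 386 ± 34.4 FPKM (SD, n = 4) in WT embryos, with Tnnt2 the most abundant. No neuron gene was separated, with Tubb3 the most abundant, and the 3 trophoblast markers summed to less than 1 FPKM in every embryo. The part of these tissues in the level of the enzymes was not tested.

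Liver markers split the embryos across both genotypes. The 8 fetal liver and yolk sac markers summed to 417, 25.4 and 500 FPKM in KO1 to KO3 and to 774, 36.9, 604 and 42.8 FPKM in WT1 to WT4, with Afp the most abundant and Alb and Fgb under 2 FPKM in KO2, WT2 and WT4. Ttr, the thyroid hormone carrier transthyretin, alone of the 8 was lower in every KO embryo, beside 5.98% of all genes. It was at 14.4, 15.3 and 15.1 FPKM in KO and at 46.4, 32.3, 53.1 and 35.3 FPKM in WT embryos (log2 fold change -1.40, SE 0.17, adjusted p = 0.0891 by limma). With the liver-rich KO1 and KO3 set against WT1 and WT3, an alternative chosen after seeing the data, the median log2 fold change of the enzymes was 0.26, beside 0.35 with all embryos. Both KO embryos were above both WT embryos in 8 of the 11 rows, beside 24.2% of all genes. Within label series 10, the median was 0.35, and KO2 and KO3 were above WT2 and WT4 in all 11 rows, beside 19.8% of all genes.

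The genes whose log2(FPKM + 1) followed the mean z-score of the enzymes most closely over the 7 embryos, among genes outside every list with a mean of at least 5 FPKM, were Depp1, Tubgcp6, Nmt2, Vars2, Cit, Ulk3, Map3k4, Col4a2, Reps1 and Flt1. Their Pearson correlations ran from 0.95 to 0.97. Depp1, a FOXO-induced regulator of autophagy, had the largest fold change of the 10 on the log2 scale, at 8.96, 8.01 and 6.88 FPKM in KO and at 3.85, 3.16, 2.98 and 3.93 FPKM in WT embryos. Flt1, a receptor for VEGF-A, was at 7.41, 6.22 and 6.51 FPKM in KO and at 4.48, 3.96, 4.29 and 4.55 FPKM in WT embryos. Within the lists, Slc2a1 reached 0.98 and Hk2 0.94. The likeness rests on 7 points that share the genotype difference, and on a mean z-score that includes Eno1 without its copies. It is a description.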

How the data were processed

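Total RNA of 3 KO and 4 WT whole embryos was sequenced from TruSeq RNA v2 libraries, and groups were taken from the sample labels. The authors deposited FPKM per gene and embryo. The submitters' processing notes name Salmon, DESeq2, MultiQC and GRCm38, without versions or order. The table also holds a mean signal per gene, which the authors deposited as a mean of normalized counts, and the authors' log2 fold change, standard error and p-values, which were not used. Genes averaging 1 FPKM or more were compared on log2(FPKM + 1), which understates changes of low genes, with limma 3.58.1 in R 4.3.3 (lmFit, eBayes with trend), without covariates, with Benjamini-Hochberg adjustment and a threshold of 0.05. The labels do not say whether embryos shared a litter. Depth is known only relative to the mean embryo. Counting error at the mean count was 0.31% to 0.90% per enzyme and 7.28% for the second Aldoa row. The fit was tested on simulated data, but the outcome is not given here and no result rests on it. Positions and 50-base stretches came from GENCODE M21 and promoters from RefSeq (GRCm38.p6), which held all 10 enzymes.

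The members and lists were chosen with earlier results of these data known. Genes were named by rule, namely Slmap, the 10 enzymes, isozymes of their steps, and genes from the 6 lists around the pathway. From each of those lists, the 3 highest in mean FPKM and the 3 with the largest fold change were named. So was any gene with an adjusted p under 0.05 or without overlap between genotypes. Other genes of these lists were chosen after their values were seen, Ankrd37 and P4ha1 among them. The rule did not cover the tissue lists, from which only some genes were named. A single isozyme enters the counts of its list but is not named here. Alternatives were pseudocounts of 0.1 and 5, no filter, a stricter filter (5 FPKM on average), quantile normalization, median-ratio size factors, a common sum for every embryo, the label series, Afp or Xist as a covariate, a robust fit, embryo quality weights, values summed per symbol and leaving out each embryo.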

Additional observations from a re-analysis of the deposited data

Results flagged for a closer look

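A gap test within the 4 WT embryos was run on 115 rows, the enzymes, Slmap and the listed pathway genes in the fit. The gap of the most distant embryo divided by the range passed Dixon's 95% critical value in 7 rows, where chance alone flags about 1 in 20, or 5.75 rows. For Eno1 the ratio was 0.856, with WT3 the highest at 505 FPKM, and for its copy Eno1b it was 0.850, with WT3 listed at 0. WT3 also stood apart for Mdh2 (0.854), where it was the highest, and for Phgdh (0.862), where it was the lowest. The other rows were Rpe (0.844, WT2 lowest), Mycl (0.860, WT1 lowest) and Mycn (0.912, WT4 highest at 26.6 FPKM). No cause of these gaps was tested.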

How the results depend on the processing

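No fit with a replicate number as a block was made, since the labels share none between the groups. With the label series as a covariate, the median log2 fold change of the enzymes was 0.37. The fold change of each of the 11 enzyme rows stayed positive under every alternative run. The lowest of these fold changes were 0.0036 for Eno1 in the liver-rich embryos and 0.05 for Gapdh without KO3. Genes outside the enzymes entered the alternative fits, but their single fold changes under these are not reported. The median log2 fold change of the enzymes, 0.35, ran from 0.26 in the liver-rich embryos to 0.38, and from 0.30 to 0.38 with each embryo left out in turn. The rows with every KO above every WT embryo, 8 of 11, became 5 after rescaling to a common sum and 5 after quantile normalization, and ran from 8 to 10 with each embryo left out. KO3 had the highest FPKM sum, 861448 beside 770063 to 813357 in the other embryos. The count was 9 with Eno1b and Gm4735 added to Eno1, an alternative chosen after seeing the data. No row was lower in every KO embryo under any alternative run. Of all genes, 6 had an adjusted p under 0.05 and 1846 an unadjusted p under 0.05. The 6 became 4 with the stricter filter, 5 with the label series or Xist as a covariate and 10 with Afp as a covariate, and ran from 7 to 12 with each embryo left out, 12 without WT1. No listed gene outside the enzymes had an adjusted p under 0.05, except 1, Vegfa, after rescaling to a common sum. The cause of these shifts was not tested. FPKM without counts per embryo gives no counting interval for single values.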
